A study of Rattus norvegicus with 82 samples.

Results

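The mitochondrial ribosomal proteins were the genes whose symbol begins with Mrpl or Mrps followed by a digit and whose raw count averaged at least 10 over all libraries. Such a symbol was carried by 69 of the 17337 genes listed, and 66 met the minimum. Mrpl30 (mean raw count 1.16), Mrpl36 (0.171) and Mrpl53 (0) fell below it, and Mrpl1 (18.6) and Mrps18c (112) were the members just above. The filter on low counts kept 11954 genes for testing, all 66 members among them. In the assembled ribosome 40 members belong to the large subunit and 25 to the small subunit. Mrps30 and Mrps18a, named for the small subunit, are counted with the large subunit, where structures of the mammalian mitochondrial ribosome place them. Mrps36 keeps a ribosomal symbol but is known as a subunit of the oxoglutarate dehydrogenase complex. Proteins with a counterpart in bacterial ribosomes numbered 38 and those specific to mitochondria 27.

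The mitochondrial ribosome translates the few mRNAs of the mitochondrial genome, which encode core subunits of the respiratory chain and of ATP synthase. Its RNA comes from the mitochondrial genome, whereas every one of its proteins is encoded in the nucleus, made in the cytosol and imported. Cardiomyocytes are packed with mitochondria, and inherited defects of several of these proteins, MRPL3, MRPL44, MRPS14 and MRPS22 among them, cause hypertrophic cardiomyopathy in children.

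The data are 82 RNA libraries in 12 groups, made from cardiomyocytes of 41 rats. Each rat gave 1 library of its right (RV) and 1 of its left ventricle (LV), so that the ventricles of a condition are paired by animal. The rats were F1 offspring of female Wistar Kyoto and male Lewis rats of both sexes. A clip was placed around the pulmonary artery (PAB), loading the RV, or around the aorta (AOB), loading the LV, of weanling rats. Sham-operated rats were the controls. Names ending in H stand for compensated hypertrophy and those ending in F for failure, shams included. By the labels the H groups were harvested at 11 weeks of age, 7 weeks after surgery, and comprised 7 Sham-H (3 male), 6 PAB-H (4 male) and 6 AOB-H (2 male) rats. At the failing stage 9 Sham-F (4 male) and 7 AOB-F (4 male) rats were 31 weeks old, 26 weeks after surgery. The 6 PAB-F rats (4 male) were 28 weeks old, 22 weeks after surgery, and thus younger than their Sham-F controls. The ages in the article are higher than those in the labels.  The clip does not narrow the vessel at first and the load builds up as the animal grows. The cells are a whole ventricle's cardiomyocyte preparation obtained by collagenase perfusion, mesh filtration and low-speed centrifugation rather than a sort by marker.

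Counts on genes summed to 6675290 to 19665400 per library, with a median of 13074500. Some libraries lay apart from their group. On the first principal component of the tested genes outside the family, which held 46.94% of the variance, LV Sham-H 4 and 5, LV PAB-H 2 and LV AOB-H 6 lay on the side of the older LV libraries, and LV PAB-F 5 lay near the younger ones. RV PAB-H 2 and RV PAB-F 1 lay apart from the other RV libraries. Libraries were set apart above 20 for the younger LV, below 20 for the older LV and above 0 for the RV. These cuts were chosen after the values were seen. LV AOB-H 6 lay at 24.95, and LV AOB-F 5, which was kept with its group, at 25.06. Counts that the libraries standing apart move are given with and without them, but medians without them only for some comparisons. All 9 cardiomyocyte markers were detected and together took 6.07% to 14.3% of a library's counts. Fibroblast markers took 0.015% to 0.305%, endothelial markers 0.0643% to 0.529% and macrophage markers 0.00537% to 0.0348%, and of 4 neutrophil markers 0 passed the filter. In bulk RNA, fewer cells of a type and less RNA per cell cannot be told apart.

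The family was expressed at moderate levels per transcript length. Mean FPKM values (fragments scaled by gene model length and by library size) over the 82 libraries ran from 0.646 to 123.6 with a median of 32.9. The median of all genes tested was 9.56, that of 87 cytosolic ribosomal protein genes 137 and that of 76 nuclear oxidative phosphorylation genes 421. The large subunit had a median of 38.8 FPKM and the small subunit 27.3. Proteins with a bacterial counterpart had a median of 32.9 and mitochondria-specific ones 29.7.

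Mrpl12, a protein of the factor-binding stalk, had the highest level per length with an FPKM of 123.6 ± 28.9 (SD, n = 82). Mrpl17, which lines the peptide exit tunnel, followed at 113 ± 16.9. Their SDs, which span all conditions and both ventricles, overlap, and the order of this pair was not tested. Mrps18b (95.1 ± 19.2), Mrps16 (85.3 ± 21.4) and Mrpl34 (80.2 ± 23.8) came next. The disease gene Mrpl3 had 76.6, Mrps14 55.2, Mrpl44 48.9 and Mrps22 16.6 FPKM. Mrps36, the member outside the ribosome, had 68.6. At the low end, Mrpl1 had an FPKM of 0.646 ± 0.363 and was at 0 in 1 library, far under the next lowest, Mrps18c (10.4 ± 2.69). Mrps31 (12.1 ± 4.31), Mrpl46 (12.1 ± 2.75) and Mrpl32 (13.6 ± 4.57) lay within their SDs of Mrps18c. Mrpl1 is an integral protein of the large subunit, and the annotation holds 2 copies named as its pseudogenes, so that its count is uncertain where reads were shared. Such named copies exist for 23 members. In addition 16 members overlap another gene in a later annotation (GRCr8). Overlaps can differ in the build the reads were counted on, where reads falling on 2 genes were not counted, and a loss of reads at these loci was not tested.

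**Figure D1:**
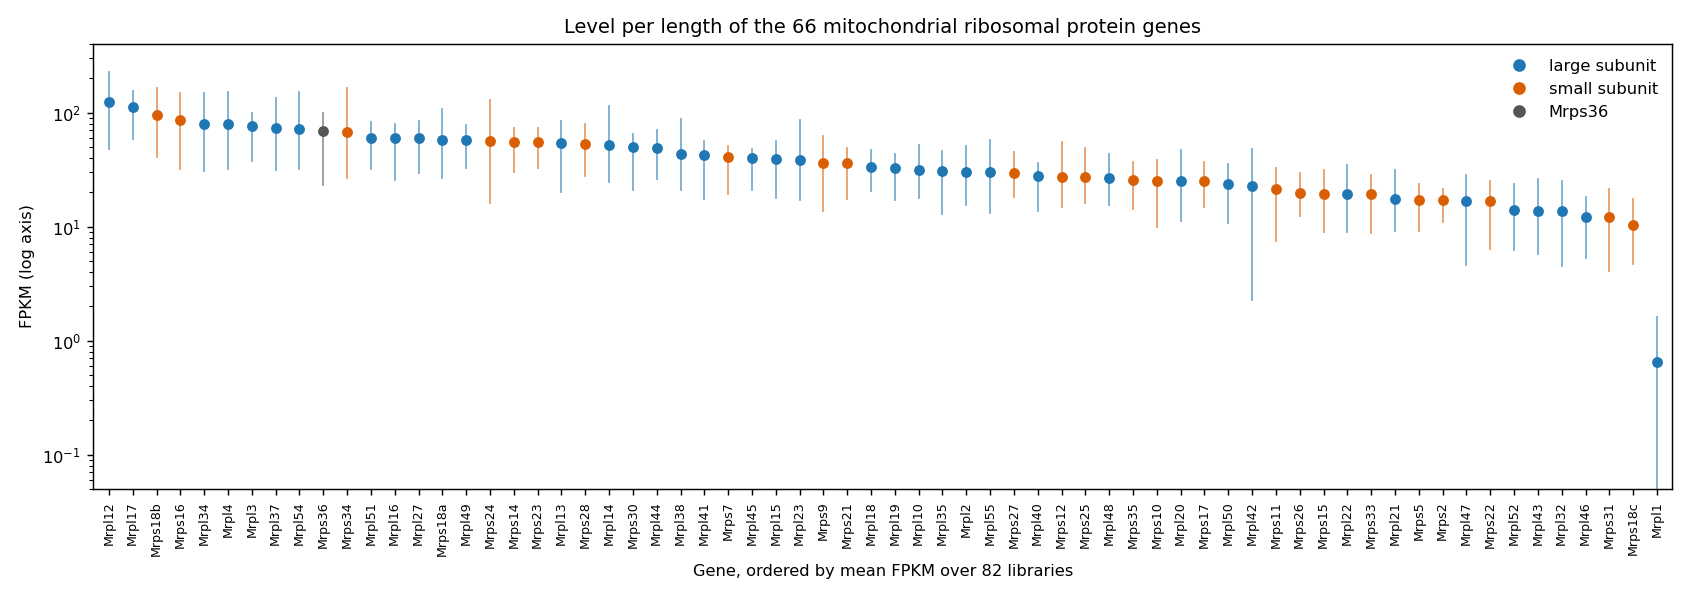
FPKM (log axis) of the 66 genes, ordered by their mean over 82 libraries. Points are means and lines run from the lowest to the highest library, coloured by subunit. The means span 0.646 (Mrpl1) to 123.6 (Mrpl12), and the line of Mrpl1 leaves the axis at the bottom because 1 library was at 0.

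The family as a whole took a similar share of the library in the 12 groups. Its summed counts were 0.196% to 0.365% of all counts, and the group means lay between 0.292% (RV PAB-H) and 0.332% (LV Sham-F). The range over the RV Sham-F libraries was 0.298% to 0.355% and that over the LV Sham-F libraries 0.303% to 0.353%, which overlap almost completely. The lowest libraries, LV AOB-H 6 (0.196%) and RV AOB-H 6 (0.244%), came from the same animal, and the first of them also had the lowest depth of the series.

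**Figure D2:**
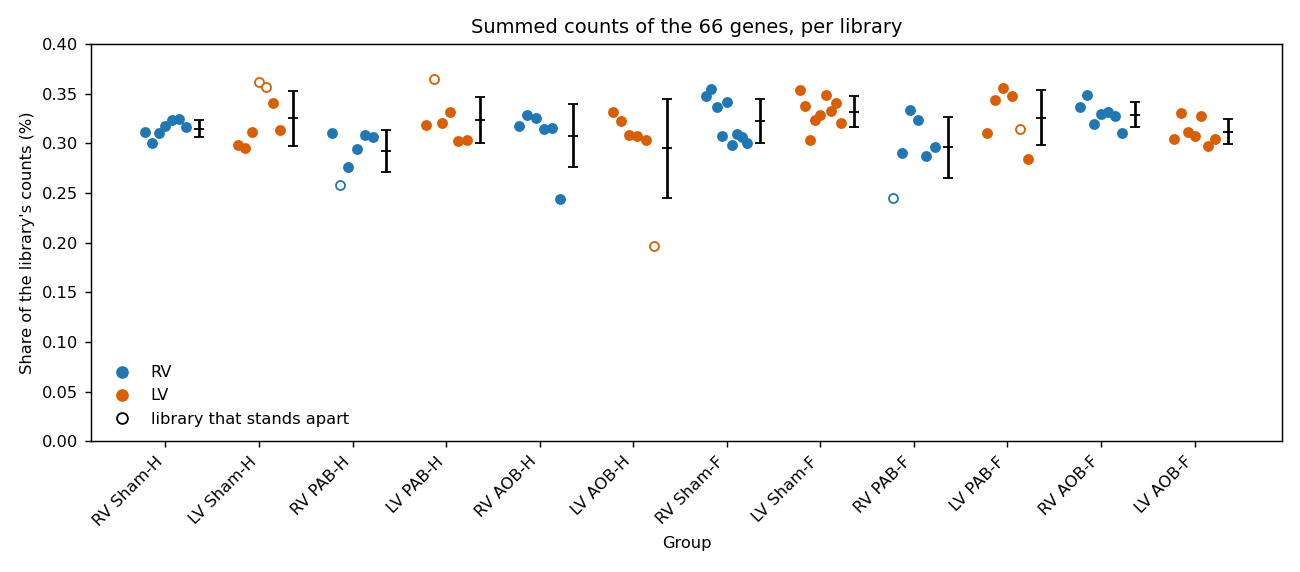
Summed counts of the 66 genes as a percentage of the library's counts, 1 point per library, in 12 groups (RV blue, LV orange, black bars: group mean ± SD, open symbols: the libraries that stand apart). The group means lie between 0.292% and 0.332%, and the lowest point is LV AOB-H 6 at 0.196%.

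In young sham-operated rats, the ventricles differed in few members. Of the 66 genes 3 were higher in RV Sham-H than in LV Sham-H and 0 lower at an adjusted p under 0.05, where 21% of all genes tested were called (9.62% higher). The median log2 difference was 0.03 over the members and -0.02 over all genes. The 3 were Mrpl42, a mitochondria-specific protein of the large subunit, Mrps22, a mitochondria-specific protein of the small subunit, and Mrps18c, a small-subunit protein related to bacterial S18. Normalized counts of Mrpl42 were lowest 246, median 313 and highest 406 in the RV, and 46.1, 204 and 258 in the LV, so that the libraries overlapped. Its log2 difference was 0.78 ± 0.26 (SE, adjusted p = 0.0267). Mrps22 had 280, 337 and 388 in the RV against 118, 291 and 325 in the LV (0.47 ± 0.17, adjusted p = 0.0395). Mrps18c had 102, 135 and 174 against 79.7, 90.6 and 139 (0.48 ± 0.17, adjusted p = 0.0388).

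These 3 calls depended on the libraries that stand apart. Without LV Sham-H 4 and 5, 0 members were called, and leaving out LV Sham-H 4, LV Sham-H 5 or RV Sham-H 7 alone also gave 0, leaving out RV Sham-H 5 gave 1, and leaving out LV Sham-H 1 or LV Sham-H 7 gave 6. Scaled by library totals alone, 1 member was higher and 3 were lower (shares of all genes not given). With the animal as a block, which uses the pairing of the ventricles, 10 members were called, all higher in the RV, where 17.7% of all genes were called higher. They included the 3 above, Mrpl47 (0.62), Mrps31 (0.52), Mrpl32 (0.43), Mrpl13 (0.39), Mrps15 (0.38), Mrps25 (0.29) and Mrpl19 (0.24). Of 7 endothelial markers 5 were lower in RV Sham-H (median -0.96), and their part in the result was not tested.

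In the banded young rats 0 members were called between the ventricles. In PAB-H, where the RV carries the load, the median member was at -0.17 and 61 of 66 estimates were below 0, against a median of 0.04 over all genes and 44.3% of all genes below 0. Only 0.125% of all genes were called there. In AOB-H, where the LV carries the load, the median member was at 0.18 and 60 of 66 were above 0, against a median of 0.02 and 53.8% of all genes above 0, with 7.98% of all genes called. The unadjusted p was under 0.05 for 6 members in PAB-H (10.9% of all genes) and 5 in AOB-H (20%), and DESeq2 called 0 in each. The animal block called 1 member lower in PAB-H, Mrpl22 (-0.51, 0.535% of all genes called lower). It called 4 higher in AOB-H, the small-subunit genes Mrps15 (0.43), Mrps25 (0.37), Mrps21 (0.35) and Mrps5 (0.26), where 4.46% of all genes were called higher. The LV and the RV libraries that stand apart were left out in separate fits, never together. The count stayed at 0 in PAB-H and in AOB-H, but the medians given next moved. In AOB-H the median member was at 0.05 without LV AOB-H 6, and 45 of 66 estimates were above 0 (53.6% of all genes). In PAB-H it was at -0.10 without RV PAB-H 2, and 49 of 66 were below 0 (46.2% of all genes). The mean log2 CPM of the members was 4.22 in LV AOB-H 6 and 4.70 in RV PAB-H 2. RV AOB-H 6, from the same rat as LV AOB-H 6, stayed in the fit without the latter. It had 4.78, where the mean of its group was 5.25. The AOB-H median without both libraries of that rat is not given here. In LV PAB-H 2, which also stands apart, the mean log2 CPM was 5.15, where the mean of its group was 5.20. The PAB-H median without that library is not given here. Of the 9 fibroblast markers 0 were called in PAB-H (median 1.17), and 6 of 7 endothelial markers were lower in AOB-H (median -1.09), and their part in the result was not tested.

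In older rats the ventricles differed widely, and the members parted into a group higher in the RV and a group lower. In Sham-F 33 members were higher and 19 lower in the RV than in the LV, together 52 of 66, where 74.3% of all genes tested were called (35.6% higher, 38.6% lower), so that the number of members called was near the background. The median member was at 0.26 and the median gene at -0.07. The members ran from -1.12 for Mrps34 to 2.69 for Mrpl42. Large-subunit genes were called higher in 20 and lower in 14 of 40 cases, and small-subunit genes in 12 and 5 of 25. Genes with a bacterial counterpart were called higher in 16 and lower in 12 of 38 cases, and mitochondria-specific genes in 16 and 7 of 27. Members of both subunits and of both classes of origin were called in both directions.

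Mrpl42 had the largest difference. Its normalized counts were lowest 229, median 271 and highest 414 over 9 RV Sham-F libraries, and 20.4, 45.1 and 64.6 over the 9 LV libraries of the same rats. The lowest RV library exceeded the highest LV library, and the log2 difference was 2.69 ± 0.25 (SE, adjusted p = 7.21e-15), a 6.45-fold difference. The annotation holds 2 pseudogenes and 1 like gene named for Mrpl42, so that its count is uncertain where reads were shared.

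Mrpl47, the counterpart of bacterial L29 at the tunnel exit, had 551, 610 and 738 in the RV and 120, 158 and 223 in the LV, again without overlap (1.99 ± 0.18, adjusted p = 4.72e-15). Its locus overlaps Actl6a and Ndufb5 in the later annotation, which also holds 2 pseudogenes named for it. Mrps22 had 329, 368 and 403 against 105, 125 and 198, also without overlap (1.34 ± 0.15, adjusted p = 3.25e-12).

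The lower group was led by Mrps34, a mitochondria-specific small-subunit protein needed for the stability of that subunit. It had 538, 635 and 696 in the RV and 934, 1307 and 1970 in the LV, without overlap (-1.12 ± 0.14, adjusted p = 1.04e-10). Mrpl14, an integral large-subunit protein at the interface of the subunits, had 445, 496 and 593 against 785, 999 and 1257 (-1.01 ± 0.14, adjusted p = 1.58e-09). Mrpl34, the counterpart of a small basic bacterial protein, had 453, 499 and 570 against 663, 908 and 1079 (-0.82 ± 0.12, adjusted p = 1.74e-08). For these genes too the LV libraries lay above all RV libraries of the group.

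Of all members 26 had no overlap between the RV and LV libraries of Sham-F, 17 higher and 9 lower, where 41.8% of all genes tested had none. Beyond those named, Mrpl1 (2.24), Mrps31 (1.33), Mrpl13 (1.33), Mrps9 (1.20) and Mrpl32 (1.05) were among the non-overlapping higher genes, and Mrps24 (-1.01), Mrpl23 (-0.81) and Mrpl38 (-0.78) among the lower ones, named here after their values were seen. The study's own criteria were a log2 change above 1, a raw p no higher than 0.01 and more than 50 mean normalized counts. By them 10 members differed in Sham-F (27.7% of all genes), 5 in PAB-F (17%), 4 in AOB-F (21.9%) and 2 between LV Sham-F and LV Sham-H (8.05%).

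**Figure D3:**
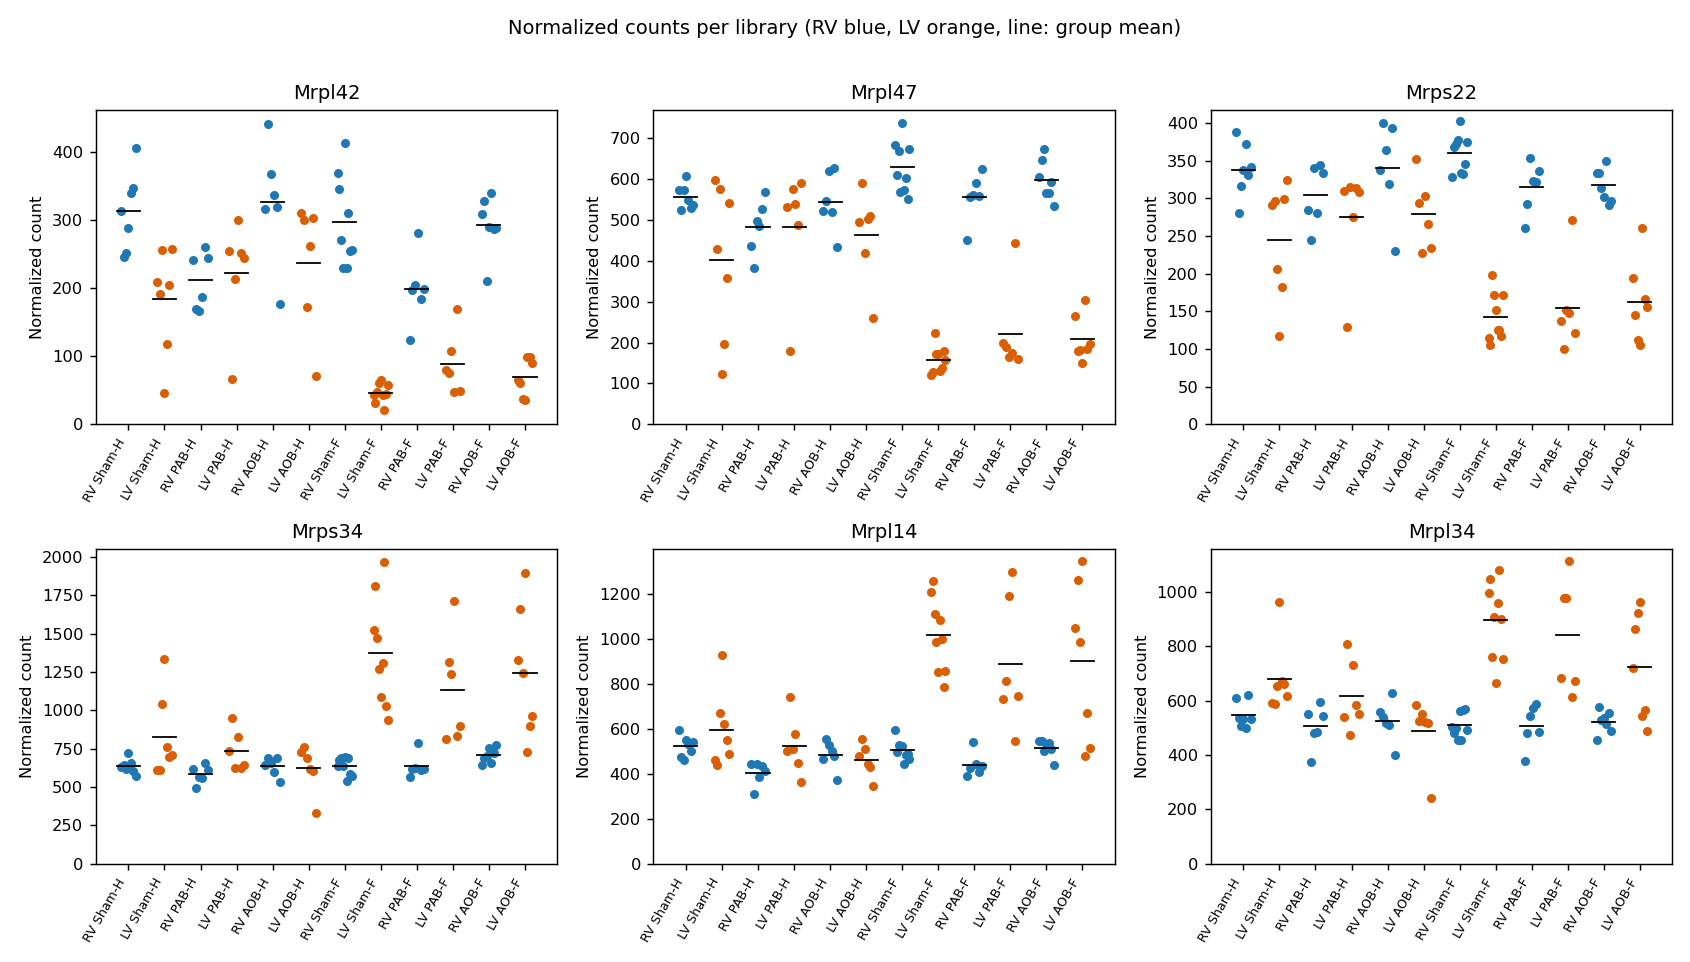
Normalized counts of Mrpl42, Mrpl47, Mrps22, Mrps34, Mrpl14 and Mrpl34 in each library of the 12 groups (RV blue, LV orange, line: group mean, axes from 0). In Sham-F the RV libraries of Mrpl42 lie between 229 and 414 and the LV libraries between 20.4 and 64.6, whereas those of Mrps34 lie lower in the RV (538 to 696) than in the LV (934 to 1970).

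Members were called in both directions in both failing conditions too, which share no library with Sham-F. In PAB-F 18 members were higher and 22 lower in the RV (61.1% of all genes called, 32.1% higher and 29% lower, median member 0.03, median gene 0.03). In AOB-F 36 were higher and 10 lower (67.1% of all genes called, 32% higher and 35.1% lower, median member 0.38, median gene -0.05). Across the 66 members the Sham-F differences followed those of PAB-F with a Pearson r of 0.958 and a Spearman rho of 0.962, and those of AOB-F with 0.971 and 0.969. Over all genes tested the Pearson r was 0.893 and 0.938. These are descriptions across genes, which are not independent replicates. Of the 66 members 64 had the same sign in Sham-F and PAB-F (97%, against 88.7% of all genes) and 61 in Sham-F and AOB-F (92.4%, against 89.8%).

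In the 3 older conditions 17 members were called higher in the RV throughout, where 25.6% of all genes tested were, so that their share was near the background. In the large subunit these were Mrpl1, Mrpl3, Mrpl13, Mrpl16, Mrpl19, Mrpl35, Mrpl41, Mrpl42, Mrpl47, Mrpl50, Mrpl51 and Mrps30, and in the small subunit Mrps9, Mrps10, Mrps22, Mrps27 and Mrps31. Another 9 were called lower throughout (24.1% of all genes), namely Mrpl14, Mrpl20, Mrpl34, Mrpl37, Mrpl38 and Mrpl55 in the large and Mrps12, Mrps24 and Mrps34 in the small subunit. Mrpl17, Mrpl43, Mrpl44, Mrps7 and Mrps17 were called in none of the 3, whereas 61 members were called in at least 1 of them (83.2% of all genes). In opposite directions 0 members were called, and the share of all genes with such calls is not given. The animal block kept every member call of the 3 comparisons and added 1 in Sham-F, 6 in PAB-F (46 members, 66.3% of all genes) and 1 in AOB-F. With it Mrpl17 (-0.28, adjusted p = 0.00613) and Mrpl43 (-0.43, adjusted p = 0.0194) were called lower in PAB-F. Mrpl21, Mrpl32, Mrpl48 and Mrps35 then joined the genes higher throughout and Mrpl23 those lower throughout. These lists are defined by the members' own calls and are a description.

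In PAB-F Mrpl47 had 451, 560 and 624 in the RV and 159, 182 and 442 in the LV (1.33 ± 0.22, adjusted p = 7.44e-07), without overlap. Mrps22 had 260, 322 and 354 against 101, 142 and 271 (1.02 ± 0.18, adjusted p = 3.19e-06), with a slight overlap through LV PAB-F 5. Mrpl51, a mitochondria-specific large-subunit protein, had 1464, 2130 and 2614 against 1008, 1306 and 1906 (0.63 ± 0.13, adjusted p = 5.05e-05).

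Among the lower genes of PAB-F, Mrpl38, a mitochondria-specific protein of the central protuberance, had 372, 514 and 697 in the RV and 735, 840 and 1521 in the LV (-0.86 ± 0.14, adjusted p = 1.04e-06). Mrpl14 had 388, 428 and 539 against 545, 781 and 1297 (-1.02 ± 0.17, adjusted p = 1.09e-06), and neither gene overlapped. Mrps24, a counterpart of bacterial S3 at the mRNA entrance, had 297, 434 and 489 against 482, 876 and 1298 (-1.07 ± 0.22, adjusted p = 2.3e-05), with a slight overlap. In PAB-F 8 members had no overlap, 1 higher and 7 lower (23.2% of all genes). Without the LV libraries that stand apart, LV PAB-F 5 among them, 46 members were called (24 higher, 22 lower), and without the RV libraries that stand apart the count was 41 (21 and 20). Shares of all genes are not given for these fits.

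In AOB-F Mrpl42 had 211, 290 and 340 in the RV and 35.4, 64.3 and 99.1 in the LV (2.08 ± 0.27, adjusted p = 1.5e-09). Mrpl47 had 535, 593 and 673 against 149, 185 and 304 (1.52 ± 0.20, adjusted p = 2.56e-09). Mrps31, a mitochondria-specific small-subunit protein, had 281, 305 and 321 against 73.9, 121 and 181 (1.33 ± 0.19, adjusted p = 6.68e-09). The ventricles did not overlap for any of these 3 genes.

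The lower genes of AOB-F showed more spread among the LV libraries. Mrps34 had 644, 699 and 772 in the RV and 727, 1244 and 1896 in the LV (-0.82 ± 0.16, adjusted p = 8.34e-06). Mrpl14 had 438, 531 and 546 against 477, 984 and 1347 (-0.81 ± 0.16, adjusted p = 9.17e-06). Mrpl55, the counterpart of bacterial L31, had 301, 325 and 370 against 338, 450 and 665 (-0.55 ± 0.14, adjusted p = 0.000403). All 3 overlapped between the ventricles, and the 18 members of AOB-F without overlap were all higher in the RV (30.3% of all genes had none).

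The split between higher and lower calls moved with the scaling and with a correction for gene length. In PAB-F the length correction gave 28 higher and 13 lower, and scaling by library totals gave 14 and 26, with a median member of -0.03. In AOB-F library totals gave 35 and 17. Shares of all genes under these settings are not given, so that a shift particular to the members cannot be read from these counts. Library totals shifted the median of all genes by over 0.1 in AOB-F, from -0.05 to -0.18, so that differences there are relative to it. The higher members had longer gene models than the lower ones (median 1294 against 901 bases, 1029.5 over all members). Across members the Spearman rho of the Sham-F difference was 0.274 with gene model length and -0.4 with mean FPKM, against 0.122 and 0.121 over all genes. These values share the libraries with the comparison and are descriptions.

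**Figure D4:**
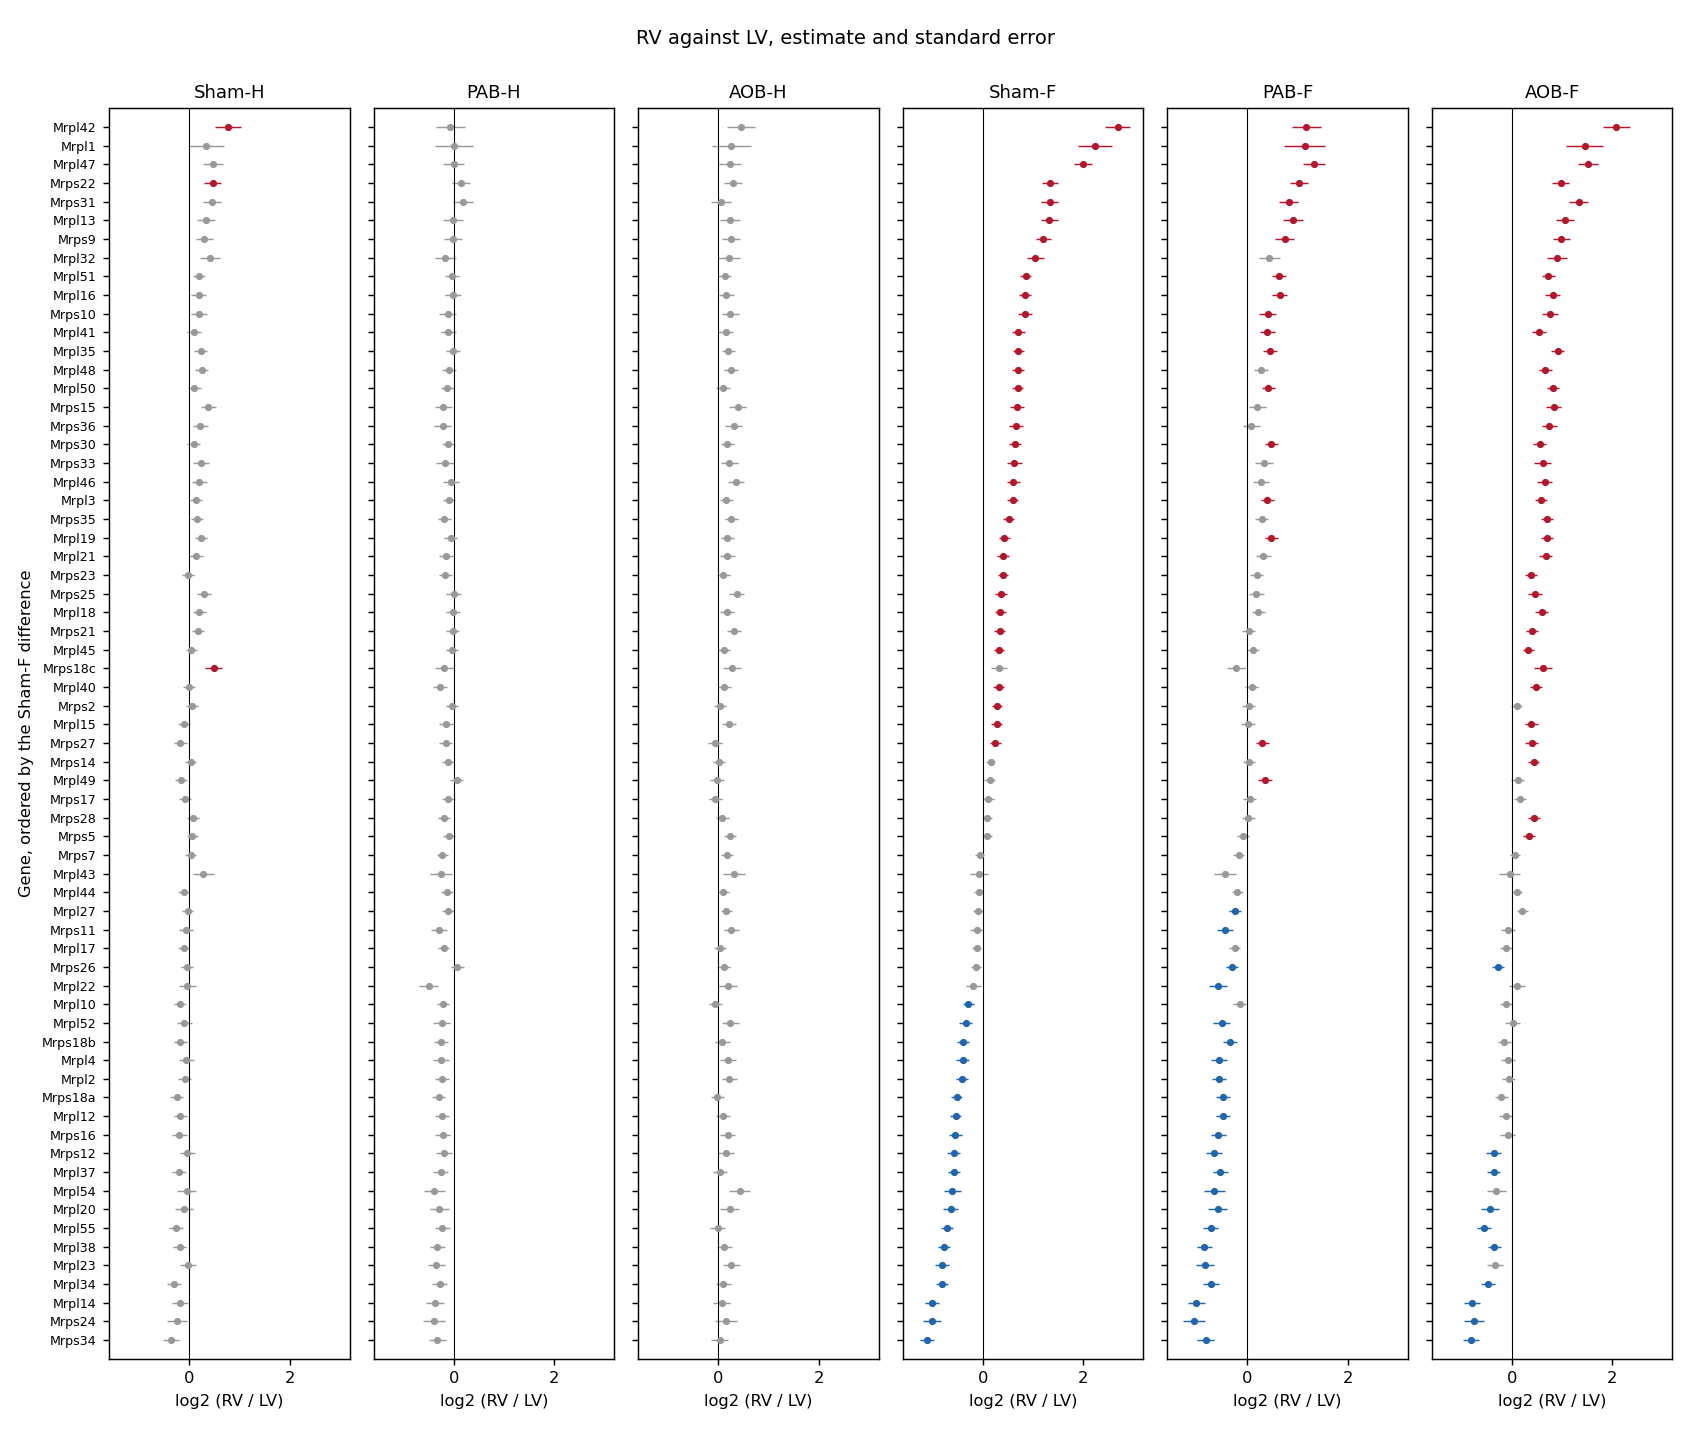
Log2 difference of RV against LV for the 66 genes in the 6 conditions, with standard errors, ordered in each panel by the Sham-F difference (red: higher in the RV and blue: lower in the RV at an adjusted p under 0.05, grey: other). In Sham-F, PAB-F and AOB-F the genes spread from -1.12 (Mrps34, Sham-F) to 2.69 (Mrpl42, Sham-F), whereas in Sham-H, PAB-H and AOB-H the estimates lie between -0.50 and 0.78.

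The promoters of members that moved in opposite directions are shown for comparison. RefSeq windows of 250 bases before and 50 after the start (GRCr8) were matched for 52 of 66 members. They were searched on both strands for the exact cores of factors known to act on genes of mitochondrial biogenesis. The NRF1 core (GCGCA and GCGC with any base between) occurred in 7 of 52 windows (13.5%, against 4.82% of 27457 genes), CCGGAAG (ETS family, to which GABPA belongs) in 15 (28.8% against 9.63%) and AAGATGGCG (YY1) in 8 (15.4% against 1.99%). At least 1 of these 3 was found in 25 members (48.1%, against 14.8% of the 27457 genes). These 27457 are all genes with a window, whether or not they were among the 11954 genes tested. Shares over the tested genes were not computed, so that a difference from other expressed genes cannot be read from these values. AAGGTCA (estrogen-related receptors) occurred in 3 (5.77% against 4.83%) and GGGGCGGGG (GC box) in 8 (15.4% against 10.9%). These counts are over the whole window. In the 250 bases before the start alone, the NRF1 core was in 5 members (9.62%, against 4.3% of genes). CCGGAAG was there in 8 (15.4% against 8.11%) and AAGATGGCG in 0 (0% against 0.768%). None of these letter strings contains another, and a match is a description of the window, not a bound site.

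Both directions held the motifs. Of 25 members higher and 15 lower in RV Sham-F that had a window, NRF1 cores were in 2 and 2, ETS cores in 6 and 6 and YY1 cores in 6 and 2. Before the start alone these counts were 2 and 1 for NRF1, 3 and 3 for ETS and 0 and 0 for YY1. The 250 bases before the start are printed 5′ to 3′ on the gene's strand for the 2 lowest and the 2 highest members in Sham-F with such a core before the start, capitals marking the core. Mrpl23 (chr1:207116680-207116929, plus strand) and Mrps18a (chr9:22367381-22367630, minus strand) were lower in the RV, and Mrpl32 (chr17:55260401-55260650, plus strand) and Mrps31 (chr16:76324066-76324315, minus strand) higher.
Mrpl23: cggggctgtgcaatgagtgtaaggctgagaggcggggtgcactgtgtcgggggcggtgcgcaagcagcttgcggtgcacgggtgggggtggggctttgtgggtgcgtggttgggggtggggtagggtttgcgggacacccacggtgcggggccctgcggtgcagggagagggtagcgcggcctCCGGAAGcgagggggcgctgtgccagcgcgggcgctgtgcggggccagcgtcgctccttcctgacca
Mrps18a: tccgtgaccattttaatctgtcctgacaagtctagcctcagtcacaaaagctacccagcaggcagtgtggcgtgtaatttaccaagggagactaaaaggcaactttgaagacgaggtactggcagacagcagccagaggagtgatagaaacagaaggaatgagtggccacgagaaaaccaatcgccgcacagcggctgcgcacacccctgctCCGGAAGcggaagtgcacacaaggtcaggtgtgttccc
Mrpl32: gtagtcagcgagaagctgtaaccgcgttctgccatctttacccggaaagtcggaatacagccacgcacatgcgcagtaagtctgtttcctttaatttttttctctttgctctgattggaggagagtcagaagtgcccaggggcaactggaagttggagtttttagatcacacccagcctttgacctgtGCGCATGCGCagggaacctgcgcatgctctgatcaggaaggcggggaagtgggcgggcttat
Mrps31: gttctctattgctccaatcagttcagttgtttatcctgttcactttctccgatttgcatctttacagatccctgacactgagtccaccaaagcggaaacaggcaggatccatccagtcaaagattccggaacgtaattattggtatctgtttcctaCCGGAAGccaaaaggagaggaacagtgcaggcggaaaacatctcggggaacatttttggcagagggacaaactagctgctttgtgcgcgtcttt
The ETS core lay 67 to 61 bases before the start in Mrpl23, 38 to 32 in Mrps18a and 94 to 88 in Mrps31, and the NRF1 core 62 to 53 bases before the start in Mrpl32.

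Between the stages, the RV of sham-operated rats showed 0 called members (0.0502% of all genes called, 1 member and 5.03% of all genes at an unadjusted p under 0.05, 0 members by DESeq2, median member 0.02). In the LV 15 members were higher and 25 lower in Sham-F than in Sham-H, where 57.4% of all genes were called (27.8% higher, 29.6% lower). The median member was at -0.11 and the median gene at 0.03. This comparison uses the same LV Sham-F libraries as the ventricle comparison. Age, time since surgery and any difference in handling between the stages cannot be told apart.

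Mrpl42 fell most in the older LV. Its normalized counts were lowest 20.4, median 45.1 and highest 64.6 in LV Sham-F and 46.1, 204 and 258 in LV Sham-H (-1.98 ± 0.26, adjusted p = 4.97e-08). Mrpl47 had 120, 158 and 223 against 124, 429 and 597 (-1.35 ± 0.19, adjusted p = 1.34e-07). Mrpl13, an integral large-subunit protein, had 211, 270 and 414 against 240, 595 and 697 (-0.92 ± 0.17, adjusted p = 1.03e-05). In each of these the lowest LV Sham-H library was LV Sham-H 4, which stands apart, and the groups overlapped.

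Mrpl14 rose most, with 785, 999 and 1257 in LV Sham-F against 437, 550 and 930 in LV Sham-H (0.77 ± 0.15, adjusted p = 1.86e-05). Mrps34 had 934, 1307 and 1970 against 608, 711 and 1333 (0.74 ± 0.15, adjusted p = 3.97e-05). Mrpl23, a large-subunit protein at the tunnel exit, had 298, 383 and 615 against 210, 270 and 406 (0.62 ± 0.15, adjusted p = 0.000407). The groups overlapped for each, and the highest LV Sham-H library was again LV Sham-H 4. Of all members 2, Mrpl16 and Mrpl45, did not overlap, both lower in the older LV (1.68% of all genes), named after their values were seen. Without the LV Sham-H libraries that stand apart 46 members were called, 19 higher and 27 lower. The length correction gave 9 higher and 32 lower. Shares of all genes under these 2 settings are not given, so that the counts describe the members alone.

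The difference between the differences was tested itself. The signed RV minus LV difference was higher in Sham-F than in Sham-H for 19 members and lower for 8 (41.6% of all genes called, 23% higher and 18.6% lower, median member 0.15, median gene -0.03). For these 8 the estimate was below 0 at both stages and lay farther below 0 in Sham-F, so that the gap under the LV was wider in the older rats. The signed difference was higher in Sham-F by 1.91 ± 0.36 on the log2 scale for Mrpl42 (adjusted p = 0.000208), by 1.53 ± 0.27 for Mrpl47 (adjusted p = 0.000154) and by 0.99 ± 0.24 for Mrpl13 (adjusted p = 0.00126). It was lower in Sham-F by -0.82 ± 0.21 for Mrpl14 (adjusted p = 0.00188), -0.78 ± 0.21 for Mrpl23 (adjusted p = 0.00319) and -0.74 ± 0.21 for Mrps34 (adjusted p = 0.00437). For Mrpl14 it went from -0.19 in Sham-H to -1.01 in Sham-F, for Mrpl23 from -0.03 to -0.81 and for Mrps34 from -0.37 to -1.12. With the animal as a block 37 members were called, 24 higher and 13 lower (49.8% of all genes), the 27 above among them. Without the LV libraries that stand apart 37 members were called, and the length correction gave 25 higher and 5 lower (shares of all genes not given).

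Other cell types moved with these comparisons. In RV Sham-F against LV Sham-F 0 of 9 fibroblast markers were higher and 6 lower (median -1.61), 6 of 7 endothelial markers were lower (median -1.62), and 4 of 8 macrophage markers were lower. Endothelial markers took 0.0643% to 0.109% of the counts in RV Sham-F and 0.197% to 0.359% in LV Sham-F, which do not overlap, and the cardiomyocyte markers 11.5% to 14.3% and 8.53% to 10.3%. Their part in the result was not tested. In PAB-F 2 fibroblast markers were higher and 3 lower (median -0.14) and 5 endothelial markers were lower (median -1.12). In AOB-F 7 fibroblast (median -1.62), 7 endothelial (median -1.86) and 7 macrophage markers (median -1.19) were lower. In LV Sham-F against LV Sham-H 5 fibroblast, 3 endothelial and 4 macrophage markers were higher and 0 lower. None of the markers tested in these lists was at 0 in all libraries.

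Few members passed the test between banded and sham-operated rats. In the loaded RV of PAB-H 0 members were called (4.5% of all genes called), although 62 of 66 estimates were below 0 (49.3% of all genes) and the median was -0.17 against 0.00 over all genes. The unadjusted p was under 0.05 for 16 members (20.6% of all genes), and DESeq2 called 0. Mrpl14, Mrps33 and Mrps35 had RV PAB-H libraries all below those of RV Sham-H (3.24% of all genes had no overlap), with log2 differences of -0.37, -0.42 and -0.33, named after their values were seen. Without RV PAB-H 2 the median member was at -0.12 and 59 of 66 estimates were below 0 (49.4% of all genes). A fit to these groups alone called 9 members, all lower (5.69% of all genes called lower).

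At failure, 3 members were lower in RV PAB-F than in RV Sham-F and 0 higher, where 11.1% of all genes were called (3.42% lower). The median member was at -0.22, the median gene at 0.02, and 7 of 66 estimates were above 0 (52.1% of all genes). Mrps36 had 500, 734 and 967 in RV PAB-F and 884, 1028 and 1239 in RV Sham-F (-0.48 ± 0.15, adjusted p = 0.0323). Mrpl48, a mitochondria-specific large-subunit protein, had 326, 431 and 502 against 454, 492 and 755 (-0.38 ± 0.13, adjusted p = 0.0391). Mrpl2, an integral protein near the peptidyl transferase centre, had 208, 289 and 396 against 325, 361 and 476 (-0.39 ± 0.13, adjusted p = 0.0408). The groups overlapped for all 3. The annotation holds 4 copies named for Mrps36 and 1 for Mrpl2, so that their counts are uncertain where reads were shared.

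These 3 calls rested on few libraries. Without RV PAB-F 1, which stands apart, 0 members were called, as without RV PAB-F 2 or RV PAB-F 5. The count was 1 without RV Sham-F 1 or RV Sham-F 5, 5 without RV Sham-F 4, 6 without RV PAB-F 3 and 13 without RV PAB-F 4. Without RV PAB-F 1 the median member was at -0.15. Scaling by library totals gave 0, a fit to these groups alone 11 (10.2% of all genes called lower) and DESeq2 7 (5.3%), all lower. Of the fibroblast markers 9 of 9 were higher in RV PAB-H (median 1.62) and 6 of 9 in RV PAB-F (median 1.43), and their summed share was 0.0353% to 0.305% in RV PAB-H against 0.0235% to 0.0461% in RV Sham-H. In RV PAB-F it was 0.0273% to 0.201% against 0.015% to 0.0508% in RV Sham-F. Their part in the result was not tested.

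In the loaded LV of AOB-H 0 members were called (0.0167% of all genes called, 13 members and 20% of all genes at an unadjusted p under 0.05, 0 members by DESeq2, median -0.11 against 0.01). That median rested on LV AOB-H 6, without which it was 0.01 against -0.02 and 34 of 66 estimates were above 0 (47.5% of all genes). Mrpl34 had LV AOB-H libraries all below those of LV Sham-H (-0.47, 0.46% of all genes without overlap). In LV AOB-F 2 members were lower and 0 higher than in LV Sham-F, where 12.9% of all genes were called (4.35% lower, median -0.10 against 0.04). Mrps16, an integral small-subunit protein, had 573, 671 and 961 against 783, 937 and 1210 (-0.48 ± 0.13, adjusted p = 0.0119). Mrpl38 had 653, 788 and 1156 against 856, 1027 and 1365 (-0.38 ± 0.13, adjusted p = 0.0345). Both overlapped, and a fit to these groups alone called 0. Leaving out single libraries gave 1 without LV Sham-F 2, 6 or 7 or LV AOB-F 1, 5, 6 or 7, and 4, 6 and 7 without LV AOB-F 3, LV Sham-F 3 and LV AOB-F 4. Of 8 macrophage markers 4 were higher in LV AOB-F (median 0.86), whose part in the result was not tested.

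The ventricles away from the band showed 0 called members in each case. In LV PAB-H and RV AOB-H 0% of all genes were called and 0 members had an unadjusted p under 0.05 (2.55% and 1.43% of all genes). In LV PAB-F 0% were called and 4 members had such a p (3.8%), and in RV AOB-F 0.0669% were called and 0 members had such a p (4.32%). DESeq2 called 0 members in each. The response to PAB at failure differed between the ventricles for 1 member, Mrpl42 (0.351% of all genes called, 0.0251% lower). It had 124, 198 and 282 in RV PAB-F against 229, 271 and 414 in RV Sham-F, and 46.7, 77.1 and 170 in LV PAB-F against 20.4, 45.1 and 64.6 in LV Sham-F. The RV response minus the LV response was -1.52 ± 0.38 (adjusted p = 0.0482), and neither response alone passed the test (-0.58, adjusted p = 0.128, and 0.94, adjusted p = 1). The call was kept without RV Sham-F 4, LV Sham-F 5, LV Sham-F 9, RV PAB-F 3, RV PAB-F 4, RV PAB-F 6, LV PAB-F 4 or LV PAB-F 6, and was lost without any other single library of these groups. With the animal as a block 2 members were called, Mrpl42 (-1.45) and Mrps36 (-0.64), where 0.577% of all genes were called lower. For AOB at failure 0 members differed in response (0% of all genes called, 7 members and 9.71% of all genes at an unadjusted p under 0.05, 0 members by DESeq2).

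**Figure D5:**
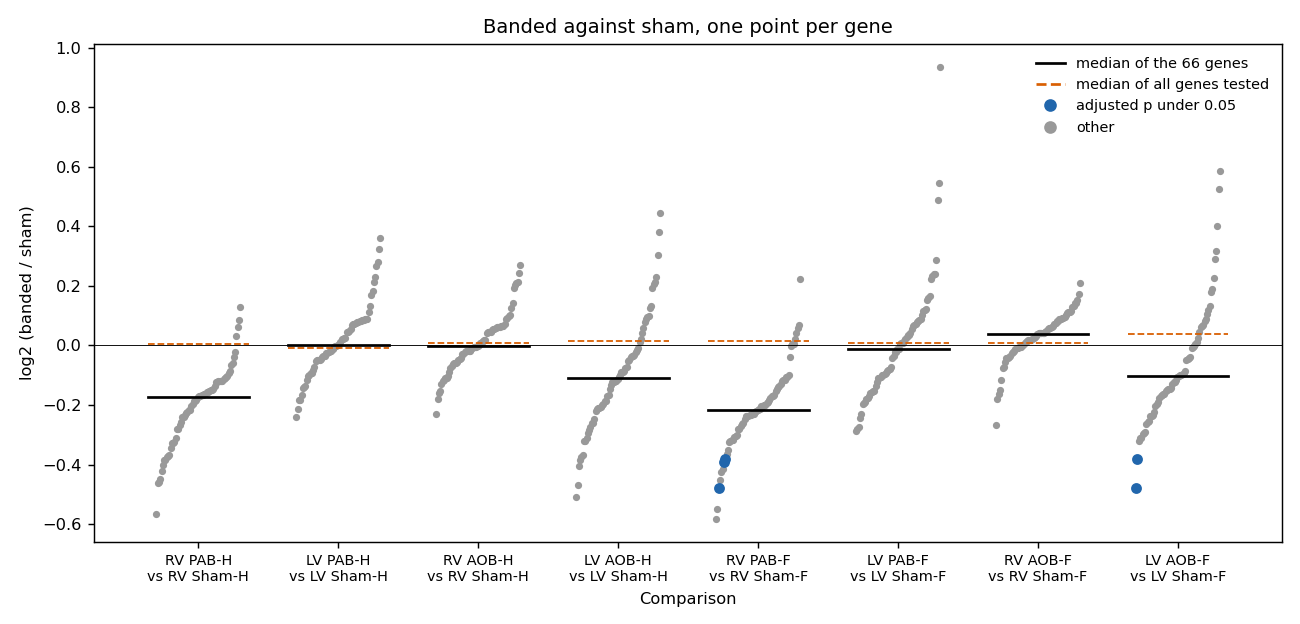
Log2 difference of the banded against the sham group for each of the 66 genes in 8 comparisons (blue: adjusted p under 0.05, grey: other, solid bar: median of the members, dashed bar: median of all genes tested). The member medians lie between -0.22 (RV PAB-F) and 0.04 (RV AOB-F), and 5 points are blue.

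Members with known roles in disease or at defined sites of the ribosome were examined whatever their values. Of the cardiomyopathy genes, Mrps22 was higher in the RV in all 3 older conditions, and the large-subunit gene Mrpl3 likewise (0.59 ± 0.10 in Sham-F, 0.40 ± 0.13 in PAB-F and 0.58 ± 0.12 in AOB-F). Mrpl3 had 1796, 1993 and 2186 in RV Sham-F and 1152, 1290 and 1617 in LV Sham-F, without overlap. Mrps14, an integral small-subunit protein, had 858, 1114 and 1216 in RV AOB-F and 603, 840 and 860 in LV AOB-F, with a slight overlap (0.43 ± 0.11, adjusted p = 0.000505). It had 0.15 in Sham-F (adjusted p = 0.15) and 0.04 in PAB-F (adjusted p = 0.802). Mrpl44, a mitochondria-specific large-subunit protein, was called in none, with -0.08 ± 0.09 in Sham-F, -0.20 ± 0.11 in PAB-F and 0.10 ± 0.11 in AOB-F, and its group means differed by at most 1.26-fold over the 12 groups. Between RV PAB-F and RV Sham-F these 4 genes had -0.28 (Mrpl3), -0.20 (Mrpl44), -0.19 (Mrps22) and -0.14 (Mrps14), none past the test.

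Of the stalk proteins, which recruit translation factors, Mrpl12 had 2111, 2409 and 2734 in RV Sham-F and 2728, 3394 and 4793 in LV Sham-F, which barely overlapped. It was lower in the RV in Sham-F (-0.54 ± 0.12, adjusted p = 2.2e-05) and PAB-F (-0.49 ± 0.14, adjusted p = 0.00198) and had -0.13 ± 0.13 in AOB-F. Mrpl10 was lower in Sham-F (-0.29 ± 0.10, adjusted p = 0.00988). Mrps12, at the decoding site, was lower in all 3 (-0.58, -0.66 and -0.37). Mrps30 was higher in all 3 (0.64, 0.48 and 0.55). Mrps36 had 884, 1028 and 1239 in RV Sham-F and 369, 704 and 837 in LV Sham-F, without overlap. It was higher in Sham-F (0.66 ± 0.14) and AOB-F (0.74 ± 0.16) and had 0.08 ± 0.17 in PAB-F.

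The 3 proteins related to bacterial S18 were called in different directions. Mrps18a was lower in the RV in Sham-F (-0.52 ± 0.11) and PAB-F (-0.49 ± 0.14), and Mrps18b likewise (-0.39 ± 0.12 and -0.35 ± 0.14), whereas neither passed the test in AOB-F (-0.21 and -0.15). Mrps18c was higher in AOB-F (0.62 ± 0.18, adjusted p = 0.00149) and had 0.32 ± 0.15 in Sham-F (adjusted p = 0.0538) and -0.22 ± 0.19 in PAB-F (adjusted p = 0.319). With the animal as a block it was called in Sham-F too (0.36 ± 0.14, adjusted p = 0.0192). The members steadiest over the 12 groups were Mrps17 and Mrps7, whose group means differed by at most 1.18-fold and 1.20-fold, whereas those of Mrpl42 differed by 7.09-fold and the median member by 1.68-fold.

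Among other genes of mitochondrial gene expression, translation factors and transcription genes were mostly called higher in the older RV. Of all genes tested 35.6% were called higher in the RV in Sham-F, 32.1% in PAB-F and 32% in AOB-F, and no test set the lists against other genes. Of 10 translation factors 8 were higher and 1 lower in RV Sham-F than in LV Sham-F (median 0.73), among them the initiation factor Mtif2 (2.13), the elongation factor Gfm1 (1.41) and the release factor Mtrf1l (1.46). In PAB-F 6 were higher and 1 lower and in AOB-F 7 and 0. Of 9 genes of mitochondrial transcription and RNA handling 7 were higher and 1 lower in each of the 3, with Tefm (1.98), Tfb2m (1.97) and Pnpt1 (1.97) leading in Sham-F (median 1.34). Of 20 assembly factors 8 were higher and 7 lower in Sham-F, with the GTPase Gtpbp10 at 2.03, the methyltransferase Mettl15 at 1.56 and Mpv17l2 at -1.21.

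Of 7 ribosomal proteins with other symbols 3 were higher and 3 lower in Sham-F. Ptcd3 of the small subunit had 1.69, Dap3, also of the small subunit, 0.48, and Mrp63 -0.71. Ict1, a rescue factor for stalled ribosomes that is also built into the large subunit, was lower in PAB-F (-0.45 ± 0.16, adjusted p = 0.0148) and had -0.25 ± 0.13 in Sham-F (adjusted p = 0.0893). Of 9 nuclear regulators 3 were higher and 3 lower in Sham-F, with Gabpa at 1.68, Ppargc1a at 1.57 and Esrra at -0.86. In LV Sham-F against LV Sham-H 0 translation factors were higher and 9 of 10 lower, and 0 of 9 transcription genes were higher and 7 lower. Of all genes tested 27.8% were called higher and 29.6% lower there, and no test set the lists against other genes. These lists were chosen with earlier results of these data known, and their counts are descriptions.

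Compared with the family, more genes of oxidative phosphorylation and of the cytosolic ribosome were called lower than higher in the RV of Sham-F. Of 76 oxidative phosphorylation genes 21 were higher and 38 lower (median -0.31), and of 87 cytosolic ribosomal protein genes 19 were higher and 50 lower (median -0.47), whereas the members had 33 and 19 (median 0.26). In PAB-F the oxidative phosphorylation genes had 14 higher and 44 lower and the cytosolic ribosomal proteins 14 and 53. In AOB-F the counts were 24 and 18, and 17 and 35. Over all genes tested, 35.6% were called higher and 38.6% lower in Sham-F, 32.1% and 29% in PAB-F, and 32% and 35.1% in AOB-F. No test set these families against other genes. Between RV PAB-F and RV Sham-F the medians were -0.22 for the members, -0.26 for oxidative phosphorylation and -0.18 for cytosolic ribosomal proteins.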

How the data were processed

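RNA of cardiomyocytes from the RV and LV of 41 rats (82 libraries, 12 groups) was depleted of ribosomal RNA and sequenced. The values tested are the raw read counts per gene that the authors deposited, made with the nf-core RNA-seq workflow (Trim Galore, STAR, Rnor6.0 with UCSC annotation, featureCounts with multiple overlaps disabled). The authors' DESeq2-normalized signal (1.28.1) and their FPKM per gene were deposited beside the counts, and from all of these the size factors and gene model lengths behind them were worked back. Reads on overlapping genes were thus not counted and copies can take reads from a member. Genes of the mitochondrial genome were not analysed here (0 were found in the table).

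The counts were tested with edgeR 4.0.16 (quasi-likelihood, TMM scaling, filterByExpr, 12 group means over 82 libraries) and limma 3.58.1 in R 4.3.3, over 19 comparisons, with Benjamini-Hochberg adjustment over 11954 genes of 17337. Called means an adjusted p under 0.05. Log2 differences carry standard errors. Normalized counts are raw counts divided by the effective library size times its mean, 13279120. Levels per length are the deposited FPKM. The common biological coefficient of variation was 0.244. Standard errors rest on the spread between libraries within groups and ignore the pairing of the ventricles, except with the animal as a block. SDs of FPKM cover all 82 libraries. Scripts were tested on simulated data. Alternatives were DESeq2 1.42.0 size factors and test, library totals, no filter, sex, the animal as a block, gene length, fits to the compared groups alone, the study's 3 criteria (on edgeR's values, with the mean taken in the banded or else in the higher group), leaving out each library and, chosen after seeing the data, leaving out libraries that stand apart.

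RV and LV libraries with the same number came from the same animal by the labels. The same-animal correlation of deviations from group means had a median r of 0.186 to 0.297 per condition (lowest single pair -0.141, in PAB-H), against -0.0686 to -0.0142 for other animals. The blocked value stands beside a named gene whose call it changes and beside counts it moves by over 1.5 times. The members, gene lists and named genes were chosen with earlier results of these data known. Named were, per comparison and direction, the 3 called members with the smallest adjusted p, the 5 highest and 5 lowest by FPKM, and genes with set roles. Promoter windows came from RefSeq (GRCr8), and no coordinate of the count table's build was used. Mrpl11 is not analysed here.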

Additional observations from a re-analysis of the deposited data

Results flagged for a closer look

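Of 72 group and value sets examined for a sample far from the others, 11 had one, where chance gives about 1 in 20. The members' share of counts was 0.196% in LV AOB-H 6 and 0.244% in RV AOB-H 6, the lowest of their groups and from the same animal. Mrpl14 was lowest in RV AOB-F 7 (438 normalized counts) and highest in RV PAB-F 3 (539). Mrpl38 was highest in LV AOB-F 4 (1156) and in LV PAB-F 4 (1521), and Mrpl42 lowest in RV AOB-F 3 (211). Mrpl47 (442) and Mrps22 (271) were both highest in LV PAB-F 5, and Mrpl23 in LV Sham-H 4 (406), libraries that also stand apart on genes outside the family. Mrps18c was highest in LV Sham-H 6 (139).

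The difference between the ventricles itself differed between Sham-F and Sham-H for 27 members by the edgeR interaction term. The difference of differences was 1.91 for Mrpl42, 1.53 for Mrpl47 and 0.99 for Mrpl13, and -0.82 for Mrpl14, -0.78 for Mrpl23 and -0.74 for Mrps34, on the log2 scale. The response to PAB at failure differed between the ventricles for 1 member, Mrpl42 (-1.52).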

How the results depend on the processing

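With a replicate block for the animal, the calls between ventricles were 10 in Sham-H, 1 in PAB-H and 4 in AOB-H, and 2 for the PAB-F response, and with the block and the length correction 11 in Sham-H, 2 in AOB-H and 2 for the PAB-F response. The block moved the other ventricle counts by less than 1.5 times (53 in Sham-F, 46 in PAB-F, 47 in AOB-F). Between bands or ages a replicate number is only a number (median r of deviations -0.103 to 0.16), and blocking on it gave 2 in place of 3 for RV PAB-F, 3 in place of 2 for LV AOB-F and 45 in place of 40 for LV age. The PAB-F response had 0 calls with DESeq2 size factors, without the filter, with the length correction and without the RV libraries that stand apart. RV PAB-F against RV Sham-F gave 0 with library totals or without the RV libraries that stand apart, 11 in a fit to the compared groups alone and 7 with DESeq2. Such fits gave 9 for RV PAB-H, 0 for LV AOB-F and 1 for RV age. Without the LV libraries that stand apart Sham-H gave 0. By the study's 3 criteria the ventricles differed in 0 members in Sham-H, 10 in Sham-F, 5 in PAB-F and 4 in AOB-F, and LV age in 2, RV PAB-F in 0 and LV AOB-F in 0; for the differences of differences the criteria were not run. Leaving out single libraries gave 0 to 6 in Sham-H, 0 to 1 in AOB-H, 51 to 54 in Sham-F, 32 to 44 in PAB-F, 43 to 47 in AOB-F, 36 to 45 for LV age, 24 to 34 for ventricle by stage, 0 to 1 for the PAB-F response, 0 to 3 for RV PAB-H (3 without RV PAB-H 6, 1 without RV PAB-H 5), 0 to 13 for RV PAB-F and 1 to 7 for LV AOB-F. For 29 named genes in 123 gene and comparison pairs, 3224 of 3401 alternative values kept direction and side of the threshold, 177 kept the direction only and 0 reversed. The cause of these changes was not tested. The member counts here stand without shares of all genes under the same settings and describe the members alone.

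Low depth limits Mrpl1 most, which had a mean raw count of 18.6. With 6 to 9 rats a group, small differences after banding were often not detectable after adjustment over all genes.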
